A study of Homo sapiens with 7 samples.

Results

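Parts of 7p21, on the short arm of chromosome 7, replicated early in K562 cells and late in U2OS cells, and 5 genes that lie there are described: GLCCI1, ICA1, NXPH1, SOSTDC1 and ANKMY2. They were taken by name from the probes of the deposited arrays, together with the 250-kb windows from 7 to 18 Mb of chromosome 7 (build hg19). The 5 genes are among 15649 gene names that had a probe on every array, and their probes number 54 of 169530 on the larger array design and 15 of 54804 on the smaller. The region spans 44 windows of 250 kb, of which 33 had at least 3 probes on all 7 arrays, out of 8912 such windows in the genome. The genes and the region were picked because their timing differed between the cell lines, so that difference is described here and carries no test. The choice centres on the domain around GLCCI1 and ICA1 and the domain around SOSTDC1 and ANKMY2.

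Replication timing is the order in which stretches of a genome are copied during S phase. It is set in domains that can hold many genes, so that neighbours are usually copied together, and the passage from an early to a late domain runs gradually along the chromosome as forks move away from the last early origins. Early domains tend to be gene-rich, open chromatin and late domains compact chromatin near the nuclear lamina, and many domains switch between cell types.

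The genes have unrelated known roles. GLCCI1 is a transcript induced by glucocorticoids, and ICA1 encodes an islet cell autoantigen, a membrane-bending protein of secretory vesicles. NXPH1 encodes a neurexophilin, a secreted ligand of neurexins at synapses. SOSTDC1 is a secreted inhibitor of bone morphogenetic proteins that also acts on Wnt signalling, and ANKMY2 is a protein with ankyrin repeats and a MYND domain.

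In every sample the cells were given bromodeoxyuridine (BrdU) at 50 µM for 2 h, and 80000 of them were then sorted by DNA content into fractions of early and of late S phase. Per the labels' protocols, an antibody recovered the newly made DNA, which went through whole genome amplification before the early fraction was labelled with Cy3 and the late fraction with Cy5. No array had the dyes swapped. K562, a human chronic myeloid leukaemia line that grows in suspension, was run on 3 arrays: with a new sorting method, with an old sorting method, and on an array titled 44k whose sorting method the labels do not name. U2OS, an adherent human osteosarcoma line, was run on 4 arrays, 2 titled manual and 2 titled automated. Nothing in the labels says that these came from separate cultures, so all SDs and p-values measure the spread between these arrays, which may be technical. Neither line was treated in any other way that the labels name, and both are aneuploid cancer lines. No slide held both cell lines, so line and slide cannot be told apart.

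Timing is given as log2(early/late), with 0 at the median probe of each array, so that a positive value means earlier than the median probe. The K562 array with old sorting and the 2 manual U2OS arrays had a small range of values: the median absolute deviation of their windows was 0.67 to 0.72, against 1.096 to 1.43 on the other 4 arrays. Probes well above background in the late channel made up 8.83% of the 44k array and 40.3% to 96.6% of the others. DPPA2, the protocol's late control, was negative on 7 of 7 arrays, and BMP1, the early control, was positive on 6 of 7, the exception being the 44k array, where its only probe read −1.996. CDKN2A, which K562 is known to lack, had a total signal of both dyes of −1.67 and −0.85 on the K562 arrays with new and old sorting and −0.64 to −0.25 on the U2OS arrays, on the log2 scale from the median probe.

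The probes that carry the pattern are 60-base oligonucleotides, and 4 of them, present on all 7 arrays, mark points along the region. They are the shared probes nearest to the point where U2OS turned late, to the middle of the GLCCI1 probes, and to the right borders in K562 of the early domains around GLCCI1 and around SOSTDC1. They are printed as deposited, with CpG dinucleotides in capitals; their strand is not given in the sources used here.
U2OS border probe, chr7:7044310-7044369: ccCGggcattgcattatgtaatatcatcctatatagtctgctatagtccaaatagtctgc
GLCCI1 probe, chr7:8086780-8086839: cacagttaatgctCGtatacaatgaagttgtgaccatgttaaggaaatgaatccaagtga
NXPH1 probe at the right GLCCI1 border, chr7:8519960-8520019: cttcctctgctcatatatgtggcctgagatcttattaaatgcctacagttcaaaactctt
Probe at the right SOSTDC1 border, chr7:17003308-17003367: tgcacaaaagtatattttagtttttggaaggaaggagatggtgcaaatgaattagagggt

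The GLCCI1 probe read 1.19, 1.0 and 0.69 on the K562 arrays (new sorting, old sorting and 44k, the order used throughout), and −0.65, −0.61, −2.37 and −1.82 on the U2OS arrays (manual 1 and 2, then automated 1 and 2). By these ratios it was early on all K562 arrays and late on all U2OS arrays. The probe was well above background on only 4 of 7 arrays in the late channel and 4 of 7 in the early channel. Some of its ratios are therefore bounds at best. The 2 probes at the K562 borders were picked for lying nearest to the points where K562 crosses 0, so K562 values near 0 follow from the choice. The NXPH1 probe read 0.86, −0.11 and 0.40, and the probe at the right border of the SOSTDC1 domain 0.02, −0.91 and −0.05. The probe where U2OS turned late read 1.22, 0.21 and 1.24 in K562 and −0.21, −0.28, −0.15 and −0.97 in U2OS. The median probe had 36.7% GC over the region, over the 5 genes and over chromosomes 1 to 22 and X alike. This is the GC content of the probes, and that of the sequence between them was not measured.

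GLCCI1 and ICA1 lie side by side and were both early in K562 and late in U2OS. GLCCI1 (9 probes, chr7:8011663-8122630) read 0.99, 0.53 and 0.40 on the K562 arrays and −0.97, −0.86, −2.35 and −2.13 on the U2OS arrays. The groups did not overlap. The genes were chosen on this contrast and the share over all genes was not computed, so lack of overlap in a gene is description only. The automated arrays were the lowest, so the SD of U2OS takes in a gap between manual and automated arrays. The same holds for ICA1, NXPH1, ANKMY2 and the GLCCI1 and SOSTDC1 windows below. It does not hold for the SOSTDC1 gene, where automated array 1 was the highest in U2OS at −0.30. The GLCCI1 means were 0.64 ± 0.31 (SD, n = 3) and −1.58 ± 0.77 (SD, n = 4), a difference of 2.22. ICA1 (14 probes, chr7:8153319-8296861) read 1.34, 0.69 and 1.002 in K562 and −1.17, −0.81, −2.14 and −2.07 in U2OS. Its means were 1.01 ± 0.32 (SD, n = 3) and −1.55 ± 0.66 (SD, n = 4), a difference of 2.56. Single probes followed the gene means: all 9 GLCCI1 probes were positive on both K562 arrays of the larger design, and 14 and 13 of the 14 ICA1 probes were.

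NXPH1, the next gene to the right, was not early as a whole in either line. Its 25 probes (chr7:8477407-8785614) averaged −0.19, −0.53 and −0.21 in K562 and −0.94, −0.87, −1.90 and −1.92 in U2OS. The groups still did not overlap, with means of −0.31 ± 0.19 (SD, n = 3) and −1.41 ± 0.58 (SD, n = 4) and a difference of 1.09. That difference was 2.37 with the deposited ratio and 1.95 with a normexp offset of 0. The gene is cut by the border of the early domain. In K562 the 8 probes nearest GLCCI1, up to position 8567274, averaged 0.56 with new and 0.09 with old sorting, and the 8 farthest, from position 8709688 on, averaged −0.64 and −0.89. In U2OS the same 8 near probes averaged −1.03, −1.05, −2.32 and −2.28.

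SOSTDC1 and ANKMY2 lie more than 8 Mb farther along and were likewise early in K562 and late in U2OS. ANKMY2 (5 probes, chr7:16639522-16677341) read 1.43, 0.21 and 1.41 in K562 and −0.38, −0.39, −1.57 and −1.43 in U2OS, a difference of 1.96 between means of 1.02 ± 0.70 (SD, n = 3) and −0.94 ± 0.64 (SD, n = 4). Its 44k value comes from 1 probe, which was not well above background in the late channel. The difference was 3.05 with the deposited ratio. The old-sorting value was far below the other K562 values but above every U2OS value. SOSTDC1 has a single probe (chr7:16502099-16502158), which read 1.17, 0.98 and 1.103 in K562 and −0.69, −0.35, −0.30 and −1.81 in U2OS. That probe was well above background in the late channel on 0 of 3 K562 arrays and 3 of 4 U2OS arrays, and in the early channel on 4 of 7 arrays. Its values with new sorting, on the 44k array and on manual array 1 are therefore bounds rather than measured levels. With old sorting and on manual array 2 neither channel was well above background, so those values are neither. Automated array 2 read far lower than the other U2OS arrays. Its means were 1.09 ± 0.10 (SD, n = 3) and −0.79 ± 0.71 (SD, n = 4), and their difference of 1.87 moved to 1.21 without background correction, 3.31 with the deposited ratio and 4.27 with an offset of 0.

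**Figure D1:**
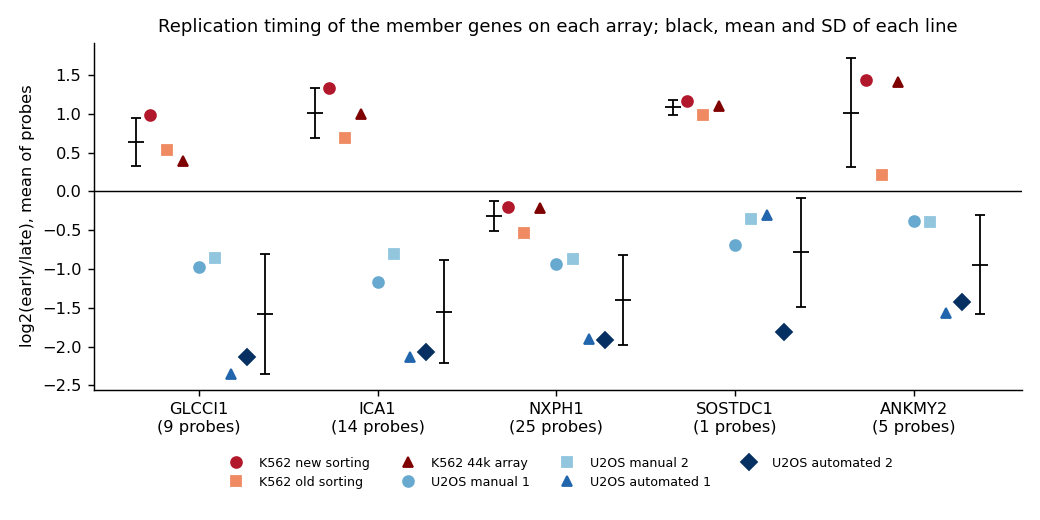
Mean log2(early/late) of the probes of each of the 5 genes on each of the 7 arrays (points), with the mean and SD of each cell line in black. The K562 points lie above the U2OS points in all 5 genes, which were chosen on this contrast, and NXPH1 alone has K562 points below 0.

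Ordered by their K562 means, ANKMY2, ICA1 and GLCCI1 ran from 1.02 down to 0.64, with SOSTDC1 left out of the order for its dim probe. Of these steps only that from ICA1 to GLCCI1 exceeded the SDs between arrays, and ICA1 was the higher on each K562 array. In the late channel 4 of 14, 11 of 14 and 0 of 4 ICA1 probes were well above background in K562. For GLCCI1 4 of 9, 5 of 9 and 0 of 3 were. The size of that step is therefore uncertain. ANKMY2 was below ICA1 with old sorting (0.21 against 0.69), and its 44k value is 1 probe, so ANKMY2 and ICA1 are not ranked. NXPH1 followed at −0.31 and was the lowest of the 5 on each K562 array. In U2OS the order ran from ANKMY2 at −0.94 to GLCCI1 at −1.58, with SDs of 0.58 to 0.77 that exceeded every step. Counted by probe, 37 and 30 of 54 were positive on the K562 arrays with new and old sorting and 10 of 15 on the 44k array. In U2OS, 2, 1, 1 and 0 of 54 were positive. In the late channel 29 and 45 of the 54 probes were well above background with new and old sorting, 0 of 15 were on the 44k array, and 48, 41, 54 and 54 of 54 were in U2OS. In the early channel 54, 37 and 13 probes were in K562 and 37, 33, 47 and 47 in U2OS.

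In 250-kb windows K562 had 15 of the 33 windows on the early side and U2OS had 0, and the other 18 windows were late in both lines. The window that holds GLCCI1 and the start of the ICA1 probes, at 8 to 8.25 Mb, read 1.16, 0.65 and 0.91 in K562 and −1.13, −0.76, −2.13 and −2.08 in U2OS. Its means were 0.91 ± 0.26 (SD, n = 3) and −1.53 ± 0.69 (SD, n = 4), a difference of 2.43. The window of SOSTDC1 and ANKMY2, at chr7:16500001-16750000 and called the SOSTDC1 window, read 1.36, 0.62 and 0.86 in K562 and −0.59, −0.41, −1.65 and −1.67 in U2OS, with means of 0.95 ± 0.38 (SD, n = 3) and −1.08 ± 0.67 (SD, n = 4) and a difference of 2.03. The lines did not overlap in either window.

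Of the 33 windows, 16 passed the threshold of a limma adjusted p under 0.05 with a difference of at least 1 as earlier in K562, and 0 as later. Over the genome 4.28% of windows passed as earlier and 8.79% as later in K562, together 13.1%. All K562 arrays lay above all U2OS arrays in 18 windows (12.1% of all windows did) and below them in 1 (18% of all windows did), and the lines overlapped in 14. The region was chosen on this contrast, so nothing is read from these counts. Near the threshold, the window at chr7:8500001-8750000 in NXPH1 passed with a difference of 1.05, and the window at chr7:12500001-12750000 did not, at 0.94. The median window of the genome differed by −0.13, and by −0.01 with arrays centred on their mean. Of the 1164 windows that passed in the genome, 32.7% were earlier in K562, against 44.5% with mean centring and 44.3% with the deposited ratio.

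**Figure D2:**
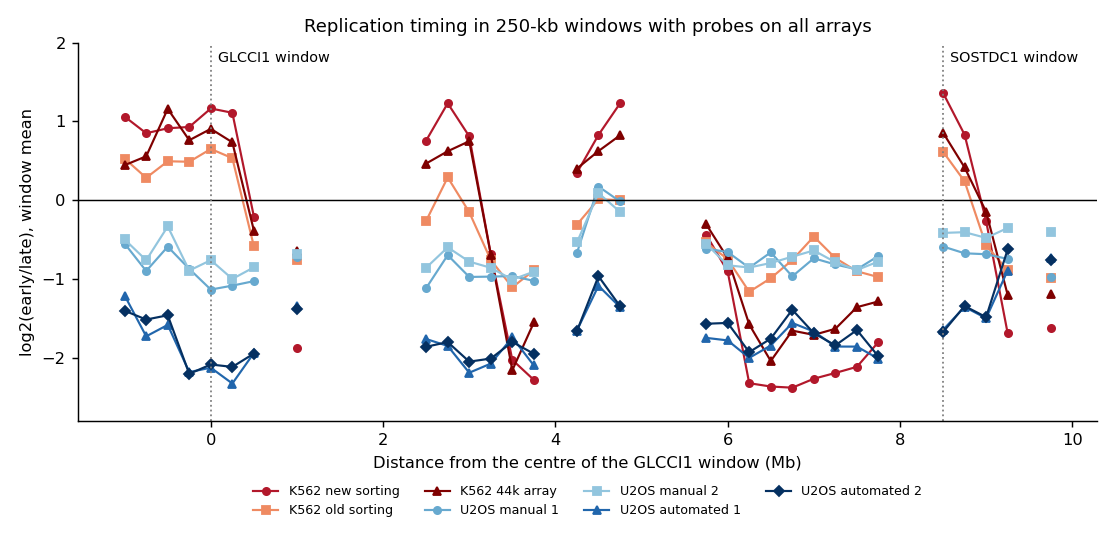
Mean log2(early/late) of 31 windows of 250 kb with at least 3 probes on all 7 arrays, against the distance in Mb from the centre of the GLCCI1 window; lines are broken where no window is drawn. The K562 arrays (reds) rise above 0 in 4 blocks, and the U2OS arrays (blues) stay below 0 except on the manual arrays about 4.5 Mb to the right of the GLCCI1 window.

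The early domain around GLCCI1 was an extension to the right, in K562, of an early domain that both lines had. In K562 the run of windows above 0 reached from 4.49, 4.53 and 4.44 Mb to 8.59, 8.49 and 8.54 Mb on the 3 arrays. The border is the point where a line between the centres of the last window inside and the first outside crosses 0. In U2OS an early run began at 4.54, 4.57, 4.69 and 4.72 Mb, close to the K562 start, but ended at 7.02, 7.01, 6.98 and 6.97 Mb. The mean right border was 8.54 ± 0.05 Mb in K562 (SD, n = 3) and 6.996 ± 0.023 Mb in U2OS (SD, n = 4), 1.54 Mb apart, with every pair of arrays 1.47 to 1.61 Mb apart. The mean left border was 4.48 ± 0.04 Mb in K562 (SD, n = 3) and 4.63 ± 0.09 Mb in U2OS (SD, n = 4). GLCCI1, ICA1 and the start of NXPH1 lie in the segment between the right borders, and so do C1GALT1, COL28A1, MIOS and RPA3, with K562 means of 0.77 to 0.84 and U2OS means of −1.36 to −0.78. The window at 6.75 Mb, just left of the U2OS border, was early on all 4 U2OS arrays, at 0.78 ± 0.15 (SD, n = 4), and on the new-sorting K562 array, at 0.61. The old-sorting and 44k arrays had fewer than 3 probes there, so their runs bridge it.

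The right border in K562 was steep in 250-kb windows and lay in NXPH1 on every K562 array. With windows of at least 5 probes the mean border was 9.45 Mb, beyond the last NXPH1 probe. Between the windows on either side of 8.50 Mb the slope of timing was −5.27, −4.47 and −4.48 log2 units per Mb on the 3 arrays. In 100-kb windows, which the larger design allows, the border lay at 8.59 Mb with new and 8.52 Mb with old sorting. These positions are less than 1 window of 250 kb apart. The steepest fall in 100-kb windows lay at 8.6 Mb with old sorting but at 9.2 Mb, beyond NXPH1, with new sorting. With the deposited ratio the steepest slope on the 44k array was −2.35 per Mb. Beyond NXPH1, the window at chr7:9000001-9250000 read −1.88, −0.76 and −0.64 in K562 and −0.72, −0.68, −1.34 and −1.38 in U2OS, where the lines overlapped. The next gene symbol with at least 2 probes beyond NXPH1 is PHF14, a PHD finger gene, in an early block of its own described below.

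The domain around SOSTDC1 and ANKMY2 was an island: early in K562 with late sequence on both sides, and late throughout in U2OS. It ended at 17.06, 16.95 and 17.06 Mb on the K562 arrays, a mean right border of 17.02 ± 0.07 Mb (SD, n = 3) that lay beyond AGR3. The width of the GLCCI1 domain was 4.06 ± 0.08 Mb (SD, n = 3). From the SOSTDC1 window the K562 mean went to 0.50 ± 0.30 (SD, n = 3) in the next window to the right and to −0.33 ± 0.22 (SD, n = 3) in the one after it, where U2OS read −0.94 ± 0.48 and −1.04 ± 0.53 (SD, n = 4). In 100-kb windows the right border lay at 17.07 Mb with new and 16.95 Mb with old sorting. BZW2, TSPAN13 and AGR3, the other gene symbols in it with at least 2 probes, had K562 means of 0.58 to 0.76 and U2OS means of −1.16 to −1.06.

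Outside the island K562 was late again. MEOX2, a homeobox gene and the nearest on the left, read −2.18, −1.13 and −1.48 in K562 and −0.85, −0.87, −1.67 and −1.65 in U2OS, with overlap between the lines. AHR, the ligand-activated aryl hydrocarbon receptor and the nearest on the right, read −1.53, −1.03 and −0.87 in K562 and −0.996, −0.53, −0.75 and −0.45 in U2OS, again with overlap. The window at chr7:15750001-16000000, on the left of the island, had a K562 mean of −1.35 ± 0.42 (SD, n = 3) and a U2OS mean of −1.37.

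**Figure D3:**
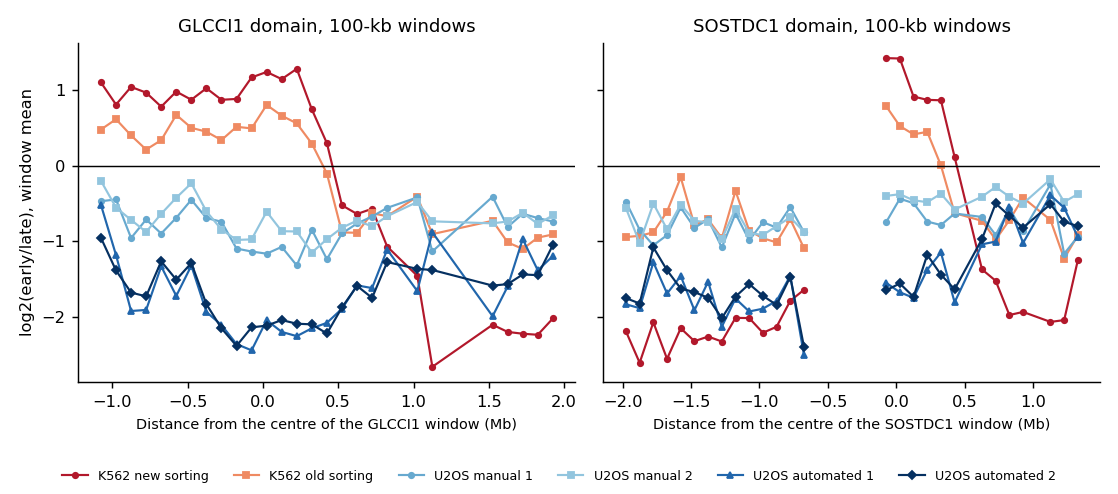
Mean log2(early/late) of 100-kb windows on the 6 arrays of the larger design, against the distance in Mb from the centre of the GLCCI1 window (left) and of the SOSTDC1 window (right, with a break where no window is drawn). Both K562 arrays fall below 0 in NXPH1 and again to the right of SOSTDC1, and the 4 U2OS arrays stay below 0 in both panels.

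The rest of the region was mixed in K562 and, by the mean over arrays, late in U2OS. K562 had 4 early runs that touch the region on each array, the GLCCI1 and SOSTDC1 domains and a pair of blocks between them. The block at PHF14 covered 10.5 to 11.25 Mb on the new-sorting and 44k arrays and a single window at 10.75 Mb, at 0.29, on the old-sorting array. The block at VWDE and SCIN, an actin-severing protein, covered 12.25 to 13 Mb on the new-sorting and 44k arrays and 12.5 to 13 Mb on the old-sorting array, where the windows read 0.013 and 0.0013. PHF14 and VWDE themselves were negative on the old-sorting array, at −0.19 and −0.23, and lie outside its early windows. Of 18 other gene symbols with at least 2 probes in the region, 10 had a positive mean in K562 and a negative one in U2OS, 8 were negative in both and 0 were positive in U2OS; 11 differed by at least 1 as earlier in K562 and 0 as later. These genes were named after their values had been seen. SCIN, among the 10 and the 11, was positive on the manual U2OS arrays, at 0.20 and 0.15, against 0.19 with old sorting in K562. Its negative U2OS mean comes from the automated arrays, at −1.13 and −1.12. The region was chosen on this contrast and the share over all genes was not computed, so nothing is read from these gene counts.

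In U2OS the late sequence ran on past the region. From the border near 7 Mb it stayed late to 22.49 and 22.48 Mb on the automated arrays, 15.5 Mb in a single run that holds all 5 genes. On the manual arrays it was broken by the window at 12.5 Mb, which read 0.17 and 0.09, so that the GLCCI1 run ended at 12.57 and 12.59 Mb. The run that holds SOSTDC1 and ANKMY2 began at 12.85 and 12.72 Mb and ended at 22.44 and 22.05 Mb. With the deposited ratio the break was absent on manual array 2, which was late in a single run from 6.98 to 22.13 Mb.

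The 2 channels took unequal parts in the differences. In the GLCCI1 window the late channel was lower in K562 than in U2OS by more than the early channel was higher: the late channel read −0.54, −0.36 and −0.95 in K562 and 1.29, 1.07, 1.47 and 1.69 in U2OS, a difference of −1.99, and the early channel differed by 0.59. The early channel overlapped between the lines, with 0.15 on the 44k array against 0.32 on manual array 2. In the SOSTDC1 window the early channel read 1.06, 0.51 and 0.999 in K562 and −0.04, 0.09, −0.23 and −0.14 in U2OS, a difference of 0.94, and the late channel differed by −1.24. Neither channel overlapped there. The region was chosen on the ratio of these channels and the share of all windows without overlap in a channel was not computed. Overlap and its lack in a channel are therefore description only. These are log2 signals from the median probe of each array, and the 44k values average fewer probes. In the late channel 4 of 9, 5 of 9 and 0 of 3 GLCCI1 probes were well above background in K562. In U2OS 8, 8, 9 and 9 of 9 were. For ANKMY2 the K562 counts were 1 of 5, 4 of 5 and 0 of 1. The K562 late values thus lie partly at background, and the size of the late differences is uncertain.

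**Figure D4:**
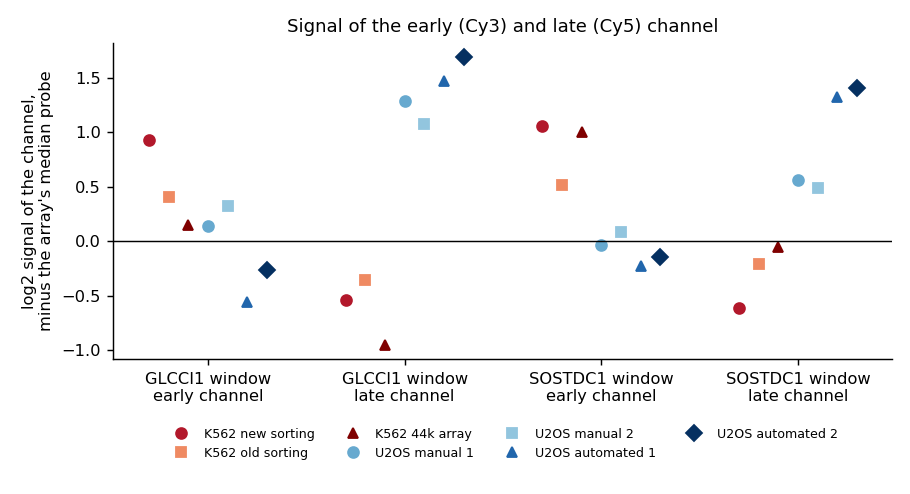
Log2 signal of the early (Cy3) and late (Cy5) channel, minus the median probe of the array, in the GLCCI1 window and the SOSTDC1 window on each of the 7 arrays. In the GLCCI1 window the cell lines separate in the late channel (K562 at −0.95 to −0.36, U2OS at 1.07 to 1.69), and in the SOSTDC1 window they separate in both channels. The region was chosen on the ratio of these channels.

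The mean log2 signal of both channels gives the total signal of a window relative to the median probe. The choice of the genes used the ratio of the same 2 channels and not their mean, so the 2 measures are not independent. Around GLCCI1 and ICA1 this total signal was lower in K562 than in U2OS, and just beyond the domain border it was higher. The GLCCI1 window read 0.21 and 0.01 on the K562 arrays with new and old sorting and 0.68, 0.68, 0.47 and 0.73 in U2OS, without overlap and with a difference of −0.53 (SE 0.12, limma adjusted p = 0.0229, lower in 2 of 2 K562 arrays). The window at chr7:9000001-9250000 differed by 0.61 (SE 0.11, limma adjusted p = 0.0114), and the SOSTDC1 window by −0.24 (SE 0.15, limma adjusted p = 0.256). In all, 12 of the 44 windows passed an adjusted p under 0.05, 7 higher and 5 lower in K562, beside 19.2% of all windows (10.8% higher and 8.37% lower). On chromosome 7 outside the region 45.8% of 566 windows passed, 220 higher and 39 lower, so the share in the region lay below that of its own chromosome. The split moved with the scaling: 12 higher and 6 lower with arrays scaled to the same range, 14 higher and 6 lower with an offset of 0, and 2 higher and 6 lower of 30 windows over all 7 arrays and their shared probes. The 5 lower windows all lay between 7 and 8.5 Mb, and the 7 higher ones between 8.5 and 14.5 Mb.

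By gene, the total signal differed between K562 and U2OS by −0.52 at GLCCI1, −0.43 at ICA1, 0.40 at NXPH1, −0.43 at SOSTDC1 and −0.16 at ANKMY2. At ANKMY2 the lines overlapped, with 0.47 and 0.70 in K562 and 0.37 to 1.09 in U2OS. The SOSTDC1 value is that of its dim probe, which read −0.94 and −0.94 in K562 and −0.87 on automated array 1. The count of windows rests on few arrays. Without either K562 array it was 0, in a fit where the lone K562 array is assumed to vary like the U2OS arrays; without automated array 1 it was 7 and without automated array 2 it was 4. The part of DNA copy number in the total signal was not tested.

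**Figure D5:**
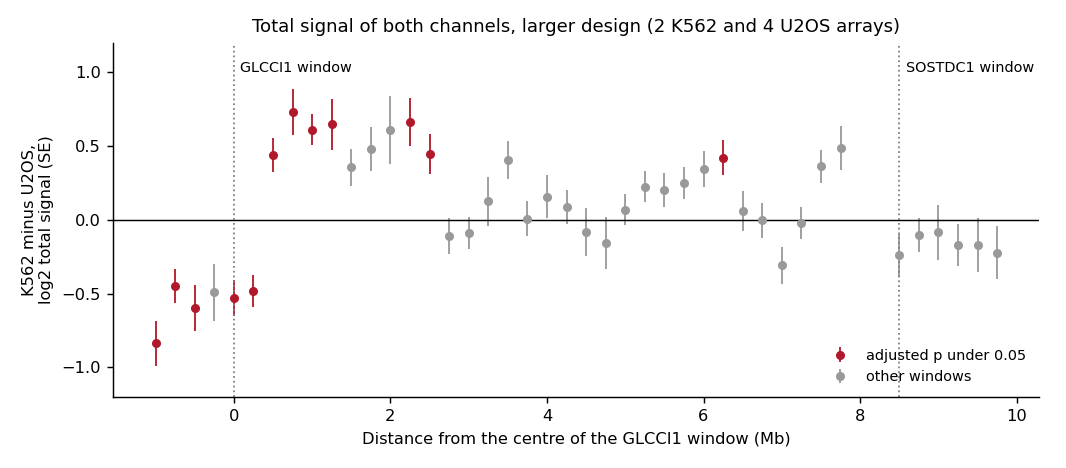
Difference of the log2 total signal of both channels between K562 and U2OS in 42 windows of 250 kb (points, with SE), against the distance in Mb from the centre of the GLCCI1 window, from 2 K562 and 4 U2OS arrays of the larger design. The 12 red windows passed a limma adjusted p under 0.05: 5 below 0 between 7 and 8.5 Mb of the chromosome, and 7 above 0 between 8.5 and 14.5 Mb.

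Manual and automated handling of U2OS were compared over the same windows, a contrast that did not choose the genes. The automated arrays read later than the manual ones in 41 of the 44 windows at a limma adjusted p under 0.05, beside 72.7% of all windows (46.5% as later and 26.2% as earlier), and 0 windows of the region were earlier. The GLCCI1 window read −0.95 ± 0.26 (SD, n = 2) on the manual and −2.11 ± 0.03 (SD, n = 2) on the automated arrays, a difference of −1.16 (SE 0.13, limma adjusted p = 2.71e-05). The SOSTDC1 window differed by −1.16 (SE 0.11, limma adjusted p = 1.66e-05). The automated arrays have the larger range of values over the whole genome. With every array scaled to the same range, 10 of the 44 windows passed (13.2% of all windows did), and the GLCCI1 window differed by −0.25 (limma adjusted p = 0.282) and the SOSTDC1 window by −0.54 (limma adjusted p = 0.0284). The window at 12.5 Mb, at SCIN, kept a difference of −0.96 (limma adjusted p = 0.0119). Both manual arrays shared a slide that held no automated array, so handling and slide cannot be told apart.

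Genes elsewhere with the most similar values were found by Euclidean distance over the 7 arrays among 8229 genes with at least 2 probes on every array. For GLCCI1 they were IL1R1 at a distance of 0.489 and IL18R1 at 0.680, interleukin receptors of chromosome 2, and GNRHR at 0.706, the gonadotropin-releasing hormone receptor of chromosome 4. IL1R1 read 0.79, 0.45 and 0.37 in K562 and −0.93, −0.75, −1.98 and −1.93 in U2OS, early and late on the same arrays as GLCCI1.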

How the data were processed

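All 7 arrays were two-colour. Spot intensity (mean signal and median local background per channel) and a log10 ratio of late over early were deposited from the scanner software, Agilent Feature Extraction, whose version is 11.5.1.1 per the file headers (CGH protocol) and 9.1 per the submitters' processing notes. Probe positions and gene names are those of the deposited tables (hg19).

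Here normexp (offset 50, fitted on all spots; limma 3.58.1, R 4.3.3) corrected the intensities for background, log2(Cy3/Cy5) was centred on the median probe of chromosomes 1 to 22 and X, control and non-uniform spots were dropped, and repeated probes were averaged. Windows of 250 kb needed 3 probes. Tests were limma (lmFit, eBayes) over all windows with Benjamini-Hochberg adjustment. Total signal is the mean log2 of both channels. The number of arrays limits the precision.

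The members and lists were chosen with earlier results of these data known. One gene of the region is not reported here. Named genes were the 5 members, the nearest genes outside the domains, the 3 most similar genes elsewhere and the control loci. Alternatives covered background correction, offset, loess, the deposited ratio, centring, dim probes, scaling, window size, probe minimum, border rule, the replicate number as a block and each array in turn left out. The U2OS titles number both kinds of array 1 and 2; same numbers did not deviate together (correlation −0.015 over windows). On simulated windows the fit of K562 against U2OS recovered 98.5% of 200 shifted windows (shift of 3, 8912 windows, 13 false calls). Automated against manual gave 92% of 200 (shift of 1.5, 11176 windows, 5 false calls). Total signal gave 97% of 200 (shift of 1.5, 11175 windows, 14 false calls). These shifts exceed in size the differences of the GLCCI1 window (2.43, −1.16 and −0.53), so recovery at such sizes was not tested. The simulated noise was independent between arrays.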

Additional observations from a re-analysis of the deposited data

Results flagged for a closer look

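Among 9 values of the U2OS arrays examined with Dixon's test, which flags about 1 in 20 groups by chance, 1 stood apart. The late run around SOSTDC1 and ANKMY2 ended at 22.05 Mb on manual array 2 and at 22.44, 22.49 and 22.48 Mb on the other U2OS arrays; this border lies outside the 7 to 18 Mb region. The low SOSTDC1 value of automated array 2 (−1.81) did not reach the critical value, with a ratio of gap to range of 0.744.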

How the results depend on the processing

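The single added alternative, the larger design alone, was chosen after seeing the data and gave 12 of 44 windows for K562 against U2OS. The K562 minus U2OS differences of the 5 genes, the GLCCI1 window and the SOSTDC1 window kept their sign in every alternative run, and the cause of the moves was not tested unless stated. The differences of SOSTDC1, NXPH1 and ANKMY2 moved by over 1.5 times, as given with each gene. The mean difference of the 5 genes (1.94) was 3.098 with the deposited ratio and 3.15 with offset 0; the GLCCI1 window (2.43) gave 3.42 and 3.503. Leaving out single arrays gave 1.73 to 2.14 and 2.23 to 2.69. The 16 windows became 9 of 19 tested with at least 5 probes, 7 of 22 at 500 kb and 0 of 1 without dim probes, where fewer windows could be tested, and 13 to 17 without single arrays.

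The left GLCCI1 border (4.48 Mb) was 4.62 with the deposited ratio, 5.17 without dim probes, 4.57 with at least 5 probes and 4.42 by steepest slope; the right one (8.54 Mb) was 8.61 with the deposited ratio and 9.45 with at least 5 probes. The right SOSTDC1 border (17.02 Mb) was 17.09 without background correction and 17.17 by slope. Without single arrays the 3 borders ran from 4.46 to 4.51, 8.52 to 8.56 and 17.004 to 17.06 Mb.

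The 41 windows of the handling comparison were 11 with the deposited ratio, 10 scaled to the same range, 24 with a difference of at least 1, 88 of 96 at 100 kb and 41 to 44 without single arrays. With the replicate number as a block 41 windows passed, and 8 with block and scaling; the numbers did not pair the arrays. The 12 windows of total signal were 5 without background correction, 20 with offset 0, 18 scaled to the same range, 8 of 30 over all 7 arrays, 7 with a difference of at least 0.5 and 0 to 11 without single arrays. The SOSTDC1 probe was not well above background in the late channel of K562, nor in the early channel with old sorting, so its K562 ratios are bounds at best. On the 44k array 11 of 44 windows had too few probes.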
